A study of Sus scrofa with 9 samples.

Results

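The shear-stress responsive regulators examined here are genes through which endothelial cells sense blood flow or answer to it. Of 9 genes listed for the group, 6 had a probe set whose platform annotation gives that symbol alone (TXNIP, ITPR3, KLF2, KLF4, S1PR1 and TSC22D3), out of 6765 such genes on the array. They were read by 10 probe sets of 10069 with 1 symbol. KLF6, NFE2L2 and PIEZO1 had no probe set of that symbol and were not analysed here. RNA of cultured endothelial cells from the porcine coronary artery had been hybridised to 9 Affymetrix arrays, 1 per sample. The 3 arrays of passage 4 cells came from cultures passaged weekly until passage 4, which the labels call senescent. Another 3 arrays held regenerated cells, which had regrown in the animal after removal of the endothelium and were scraped off and cultured with no further passage. The remaining 3 arrays held passage 1 cells, grown for 1 week as controls. All cells were collected at basal condition, and no flow treatment is named for any group. Strain, sex and age are not in the labels. Nor is it stated that the arrays within a group stand for different pigs or dishes, and the p-values then reflect array-to-array spread that could be purely technical.

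In a vessel with steady laminar flow, endothelial cells sense the drag of blood through ion channels such as PIEZO1, through junctional complexes and through G protein-coupled receptors such as S1PR1. Calcium release from internal stores and the MEK5-ERK5-MEF2 kinase cascade carry the signal on and induce the transcription factors KLF2 and KLF4, which favour a quiescent, anti-inflammatory and anticoagulant state, while NFE2L2 turns on antioxidant genes. TXNIP, which binds and inhibits thioredoxin, is known to fall under steady flow.

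Values are MAS5 signals, a linear measure of a probe set's brightness already scaled by the authors to 1 common level, and their precision is limited by the number of arrays. Tests used log2(signal + 16) in limma over all 9 arrays, with an adjusted p under 0.05 (Benjamini-Hochberg over 15299 tested probe sets) as the threshold. Folds come from these log2 values, so for dim genes they are smaller than the change in signal. A probe set entered the test if its signal exceeded the 40th percentile of the array in at least 3 arrays, a level of 37.2 to 49.2. Of the 10 member probe sets 7 passed this filter, for 5 genes, and KLF2 and the dimmer probe sets of ITPR3 and TSC22D3 did not. Positions are not given because the files name no build, and levels of different probe sets are not compared with each other.

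The arrays differed in ways that partly follow the groups. Bacterial dap and thr transcripts added before labelling gave a mean log2 signal at the 5' end minus the 3' end of -2.09 to -1.77 at passage 4, -5.19 to -4.36 in regenerated cells, and -1.99, -4.87 and -4.25 in passage 1 arrays 1, 2 and 3. The arrays were divided at this gap into 2 spike-in classes, a division taken from the data, since no label or header names a batch. The other Bacillus transcripts, lys and phe, did not divide the arrays, at 0.27 to 0.66 and -0.50 to 0.42. One pig actin pair had a 5' minus 3' value of -0.54 to -0.35 at passage 4, of -2.78 to -1.65 in regenerated cells, and of -0.67, -1.71 and -1.37 in passage 1 arrays 1, 2 and 3. That pair divided the arrays as dap and thr did, so RNA quality and spike-in class cannot be told apart in it. A second pig actin pair was at 0.84 to 1.37 at passage 4, -0.01 to 1.10 in regenerated cells and 0.29 to 0.49 at passage 1. One pig GAPDH pair was at 0.14 to 0.46 at passage 4, -1.52 to -0.02 in regenerated cells and 0.19 to 0.25 at passage 1, while another was at -0.90 to -0.37 over all arrays. A further GAPDH pair was at -0.07 to 0.01 at passage 4, -0.56 to -0.24 in regenerated cells and -0.07 to 0.07 at passage 1. A pig EF1A pair was at 0.05 to 0.26 at passage 4 and -2.25 to -0.93 in regenerated cells. In passage 1 arrays 1, 2 and 3 it was at 0.18, -0.80 and -0.42. The part of RNA quality in the results was not tested. The labelling protocol used 1 ug of RNA at passage 4 and passage 1, and 0.5 to 1 ug in regenerated cells, so RNA input and the regenerated group cannot be told apart. A value within the spike-in class rests on passage 1 array 1 alone for passage 4, and on passage 1 arrays 2 and 3 for regenerated cells. Passage 4 and regenerated arrays share no class. Passage 1 array 1 was the lowest of its group for 6 of the 7 tested member probe sets, against 34.1% of all tested probe sets. Of 13 endothelial markers 10 had a probe set, with a summed signal of 21892 to 23379 at passage 4, 18839 to 25762 in regenerated cells and 22997 to 26325 at passage 1. PECAM1 and CDH5 were bright in every array (5520 or more and 8524 or more), while VWF and KDR were dim in all groups (52.1 or less and 23.6 or less). CLDN5, a tight junction protein, fell by 1.62 in regenerated cells (adjusted p = 0.0134), and the other 7 tested endothelial markers did not pass there. Of 12 leukocyte markers 9 had a probe set, and 8 of these did not pass the filter. The remaining one, LAPTM5, was bright in every array, at 4269 to 7065. Summed smooth muscle markers (8 of 10 with a probe set) ranged from 17830 to 32407 at passage 4, 33012 to 45915 in regenerated cells and 17649 to 37044 at passage 1. Of these ACTA2 was at 10501, 485 and 1140 at passage 4, and at 13189, 2519 and 196 at passage 1. Passage 1 array 1, on which the passage 4 values within the class rest, was also the highest of its group for CNN1 (399, 147 and 26.1). It was the lowest for SMTN (510, 601 and 698). Summed fibroblast markers (8 of 10) ranged from 1364 to 1844 at passage 4, 5890 to 7286 in regenerated cells and 1289 to 3238 at passage 1. In regenerated cells against passage 1, the fibroblast markers LUM, THY1 and ASPN, 3 of 6 tested, rose, as did SMTN, 1 of 6 tested smooth muscle markers. LUM was at 660, 30.1 and 1014 in regenerated cells and at 5.80, 17.9 and 14.1 at passage 1. Its regenerated array 2 and all its passage 1 arrays lay below the filter, so its size of change is uncertain. What part other cell types have in the members' values was not tested. In bulk RNA fewer cells of a type and less RNA per cell cannot be told apart.

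TXNIP and ITPR3 were lower in both passage 4 and regenerated cells than in passage 1 cells. At passage 4, 2 of the 7 tested member probe sets passed the threshold, both downward, where 4.79% of all tested probe sets passed and 2.08% passed downward. In regenerated cells the same 2 passed, both downward, where 5.49% of all probe sets passed and 2.51% passed downward. Both genes were known to fall when the group was drawn up, so these shares describe the group and do not support it. The comparisons share the 3 passage 1 arrays and are not independent. Between passage 4 and regenerated cells limma called 0 of the 7, where 12.5% of all probe sets passed. At an unadjusted p under 0.05 stood 1 of the 7 there, where 28.6% of all probe sets did. Against passage 1 that count was 4 of 7 at passage 4, where 19.7% of all did. In regenerated cells it was 2 of 7, where 22.0% of all did.

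**Figure D1:**
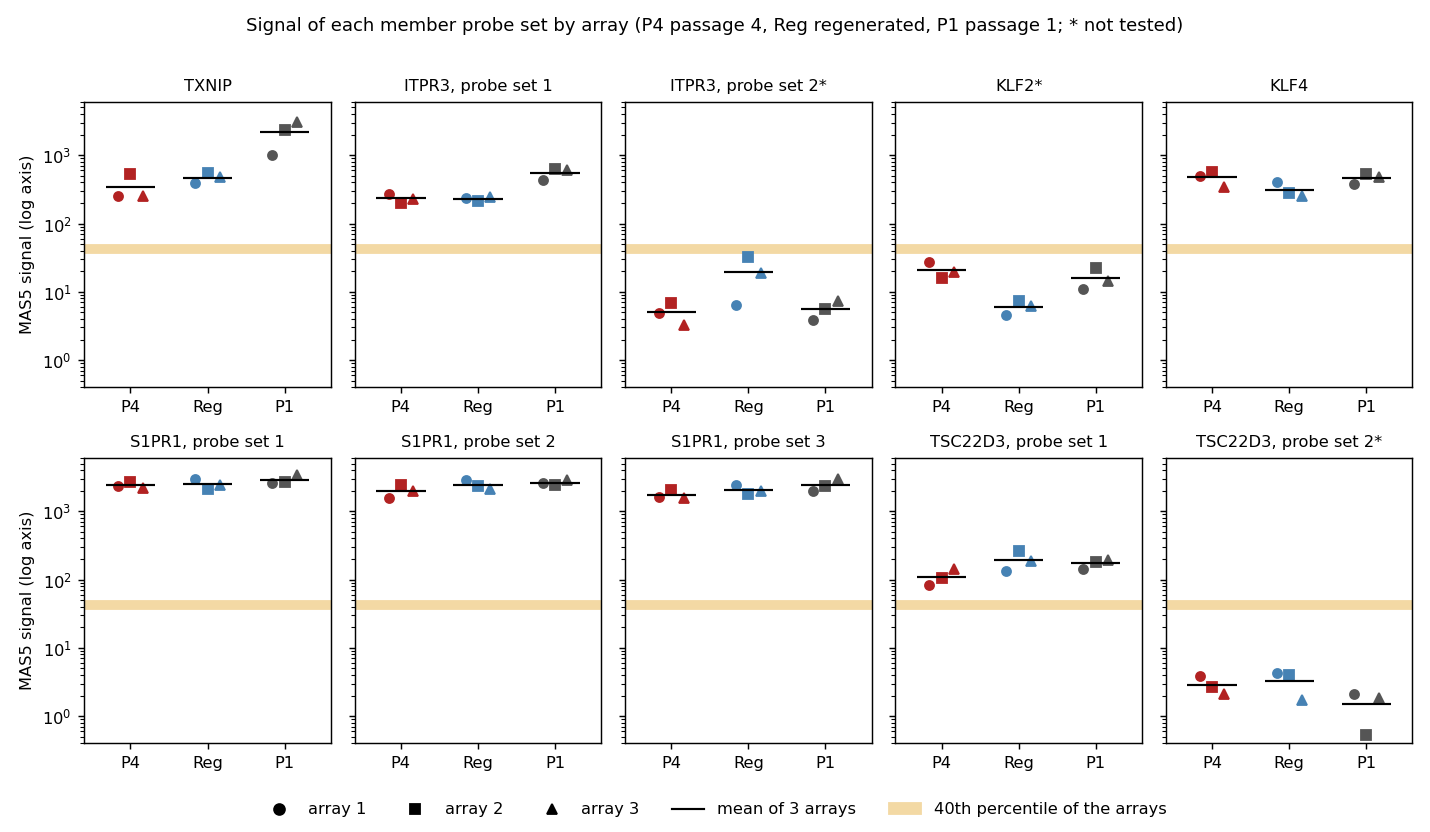
MAS5 signal (log axis) of the 10 member probe sets in each array, with passage 4 at the left, regenerated in the middle and passage 1 at the right of each panel; symbols are arrays 1 to 3, black bars the means and the band the 40th percentile of the arrays. TXNIP and the first probe set of ITPR3 are lower in all 6 passage 4 and regenerated arrays than in any passage 1 array, and the 3 probe sets marked as not tested lie below the band.

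TXNIP (Entrez gene 733688), the thioredoxin inhibitor that also restrains glucose uptake, had the largest difference of the members. Its signal was 254, 536 and 250 at passage 4, 392, 550 and 472 in regenerated cells, and 1014, 2359 and 3095 at passage 1. Neither passage 4 nor regenerated arrays overlapped the passage 1 arrays, and passage 1 array 1 was the lowest of its group. The mean was 347 ± 164 at passage 4, 472 ± 79.0 in regenerated cells and 2156 ± 1055 at passage 1 (SD, n = 3 each). At passage 4 TXNIP fell by 2.53 (log2 scale; SE 0.39, adjusted p = 0.00515, limma), a 5.77-fold lower level than at passage 1, and the 41st largest fall of all tested probe sets. In regenerated cells it fell by 2.02 (SE 0.39, adjusted p = 0.0135), a 4.07-fold lower level, the 67th largest fall there. Passage 4 and regenerated arrays overlapped, and their difference of -0.50 was within its error (95% interval -1.36 to 0.35, adjusted p = 0.435).

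The spread of TXNIP among arrays was wide at passage 4 and passage 1. Its log2 SD of 0.60 at passage 4 exceeded that of 94.0% of tested probe sets, its SD of 0.24 in regenerated cells that of 39.9%, and its SD of 0.83 at passage 1 that of 93.7%. Within the spike-in class TXNIP was at -1.60 at passage 4, with an adjusted p of 0.0923, and at -2.49 in regenerated cells, with an adjusted p of 0.0023. All 3 passage 4 arrays also lay below passage 1 array 1, at 536 or less against 1014. Without passage 1 array 1 the passage 4 difference was -2.995 (adjusted p = 0.000699). Without regenerated array 3 the difference of regenerated cells was -2.03 and did not pass (adjusted p = 0.0517). With the class as a block passage 4 minus regenerated was 0.90 (adjusted p = 0.381), that is, -1.60 minus -2.49, and so rests on passage 1 array 1 against passage 1 arrays 2 and 3.

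ITPR3 (Entrez gene 100155015) encodes the type 3 inositol trisphosphate receptor, a channel that releases calcium from the endoplasmic reticulum. Its signal was 272, 200 and 231 at passage 4, 234, 212 and 240 in regenerated cells, and 441, 619 and 608 at passage 1. The groups differed from passage 1 without overlap and lay on top of each other. At passage 4 ITPR3 fell by 1.19 (SE 0.22, adjusted p = 0.0127), 2.27-fold below passage 1, and in regenerated cells it fell by 1.21 (SE 0.22, adjusted p = 0.00988), 2.31-fold below passage 1. The difference between passage 4 and regenerated cells was 0.03 (95% interval -0.45 to 0.50, adjusted p = 0.956), and its sign turned under quantile normalization and median centring, at -0.09 and -0.10. The 3 regenerated arrays were close to each other for ITPR3, with a log2 SD of 0.09, smaller than that of all but 7.22% of tested probe sets.

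The passage 4 call of ITPR3 stood near the threshold. It was lost without passage 1 array 2 (-1.10, adjusted p = 0.0591), without passage 4 array 2 (-1.08, adjusted p = 0.057) and without passage 4 array 3 (-1.18, adjusted p = 0.0539). Within the spike-in class ITPR3 was at -0.88 at passage 4 (adjusted p = 0.191) and at -1.37 in regenerated cells (adjusted p = 0.00701). The call in regenerated cells held in all 19 alternative settings tried, with differences from -1.37 to -1.07. The dimmer ITPR3 probe set was at 4.82, 6.89 and 3.29 at passage 4, 6.50, 32.6 and 18.6 in regenerated cells, and 3.84, 5.54 and 7.25 at passage 1. These signals all lie below the filter and give no fold.

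**Figure D2:**
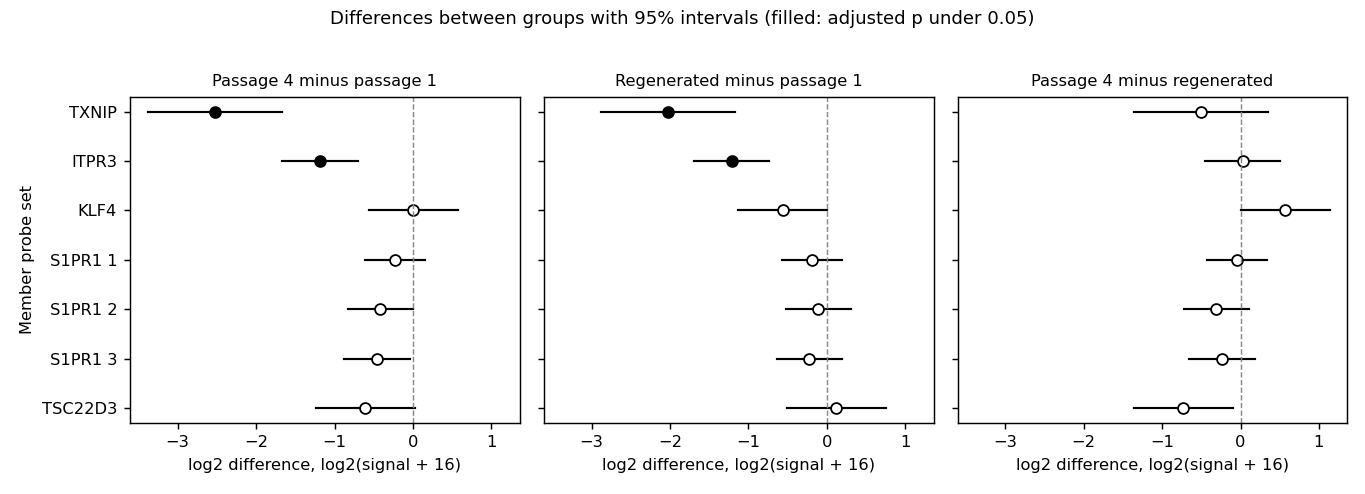
Difference on the log2(signal + 16) scale between groups for the 7 tested member probe sets, with 95% intervals; filled points have an adjusted p under 0.05, and S1PR1 1 to 3 are its probe sets. TXNIP (-2.53 and -2.02) and ITPR3 (-1.19 and -1.21) are filled in the comparisons with passage 1, and no point is filled between passage 4 and regenerated cells.

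**Figure D3:**
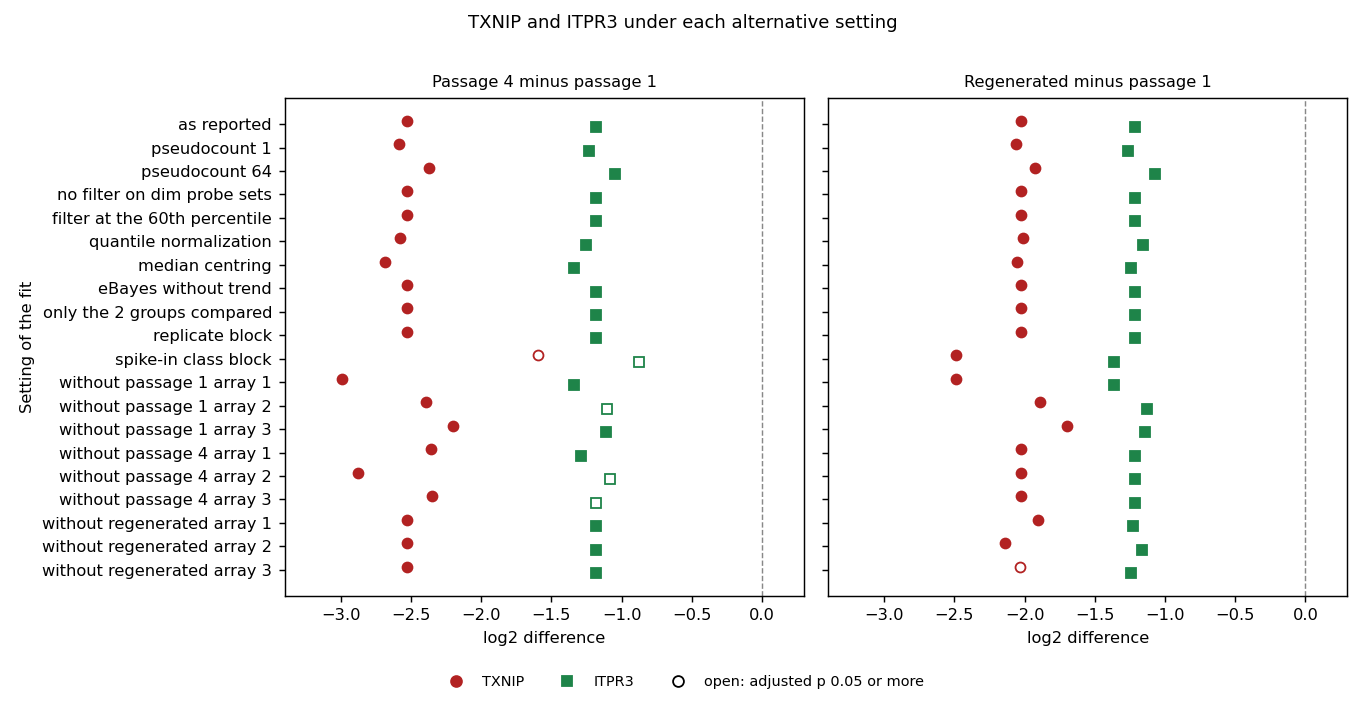
log2 difference of TXNIP and ITPR3 from passage 1 under the reported fit and 19 other settings; open symbols have an adjusted p of 0.05 or more. Every point lies below 0, and the values nearest to 0 are those of passage 4 within the spike-in class, -1.60 for TXNIP and -0.88 for ITPR3.

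KLF4 (Entrez gene 595111), a zinc finger factor induced by laminar flow, did not pass in any comparison. Its signal was 505, 572 and 341 at passage 4, 406, 275 and 257 in regenerated cells, and 376, 534 and 487 at passage 1. Passage 4 and passage 1 arrays ran through the same range, with a difference of 0.00 (SE 0.26, 95% interval -0.56 to 0.57, adjusted p = 0.995). In regenerated cells 2 of the 3 arrays lay below every passage 1 array, at a difference of -0.56 (95% interval -1.13 to 0.01, adjusted p = 0.231). Passage 4 minus regenerated was 0.57 (95% interval -0.00 to 1.14, adjusted p = 0.175). The lowest passage 4 array, array 3, lay between the regenerated arrays.

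KLF2 (Entrez gene 100174959), the flow-induced factor most closely tied to nitric oxide synthase and thrombomodulin expression, was dim in every array. Its signal was 27.7, 15.99 and 19.5 at passage 4, 4.58, 7.44 and 6.25 in regenerated cells, and 11.2, 22.0 and 14.2 at passage 1. The regenerated arrays lay below all others, but no array reached its 40th percentile, and no fold is given. With no filter on dim probe sets KLF2 did not pass in any comparison, and its smallest adjusted p was 0.064, for passage 4 against regenerated cells.

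S1PR1 (Entrez gene 100621202), the receptor through which sphingosine 1-phosphate tightens the endothelial barrier, was read by 3 bright probe sets. On the first the signal was 2369, 2729 and 2210 at passage 4, 2996, 2151 and 2419 in regenerated cells, and 2601, 2643 and 3382 at passage 1. The second probe set stood at 1544, 2398 and 1991 at passage 4, 2856, 2334 and 2108 in regenerated cells, and 2580, 2403 and 2831 at passage 1. The last of them stood at 1631, 2021 and 1573 at passage 4, 2398, 1791 and 1979 in regenerated cells, and 1968, 2348 and 2924 at passage 1. All 3 had lower means at passage 4 than at passage 1, and none passed the threshold. At passage 4 the differences were -0.23 (95% interval -0.62 to 0.15), -0.41 (-0.83 to -0.00) and -0.46 (-0.88 to -0.04), with adjusted p of 0.535, 0.254 and 0.211. Only on the second probe set did the passage 4 and passage 1 arrays not overlap, by a margin of 2398 against 2403. In regenerated cells the differences were -0.19, -0.11 and -0.22, with intervals that reached from -0.64 to 0.31 (adjusted p from 0.539 to 0.788). Passage 4 minus regenerated was -0.04, -0.31 and -0.24 (adjusted p from 0.313 to 0.904). The probe sets read 1 gene in the same RNA and are not independent.

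TSC22D3 (Entrez gene 100517321) encodes a leucine zipper protein induced by glucocorticoids that restrains inflammatory signalling. Its signal was 82.6, 107 and 141 at passage 4, 135, 266 and 186 in regenerated cells, and 145, 181 and 195 at passage 1. The passage 4 arrays lay below all passage 1 arrays, with the nearest pair at 141 and 145, and regenerated arrays stood on both sides of the passage 1 range. The difference was -0.61 at passage 4 (95% interval -1.23 to 0.02, adjusted p = 0.278) and 0.12 in regenerated cells (95% interval -0.51 to 0.75, adjusted p = 0.843). Between passage 4 and regenerated cells it was -0.73 (95% interval -1.36 to -0.10), with an unadjusted p of 0.0268 and an adjusted p of 0.119, so it did not pass. Without regenerated array 2, the highest, regenerated minus passage 1 turned to -0.11. The other TSC22D3 probe set was at 4.24 or less in every array and says nothing of a difference.

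The order of the group means was passage 4, regenerated, passage 1 from low to high for TXNIP and for each S1PR1 probe set. For ITPR3 it was regenerated, passage 4, passage 1, for KLF4 regenerated, passage 1, passage 4, and for TSC22D3 passage 4, passage 1, regenerated. Of the neighbours in these orders, those separated by a difference past the threshold were regenerated and passage 1 for TXNIP, and passage 4 and passage 1 for ITPR3.

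Genes whose profile over the 9 arrays lay nearest to TXNIP and ITPR3 were found by the root mean square difference between log2 values, each centred on its own mean, among 7670 probe sets of other genes. Because they were picked for their profile in these same arrays, lower values than at passage 1 follow from the choice. Their differences and adjusted p describe them and are no separate support. The genes nearest to TXNIP were SELP (0.41), LOC100156073 (0.46) and SERPING1 (0.50), where TXNIP itself spanned 3.55. SELP encodes P-selectin, a leukocyte receptor stored in endothelial granules, and SERPING1 the C1 inhibitor of complement. SELP was at 949, 2929 and 1126 at passage 4, 1807, 2132 and 2471 in regenerated cells, and 2262, 9331 and 7575 at passage 1. Its differences from passage 1 of -1.88 at passage 4 and -1.35 in regenerated cells did not pass (adjusted p = 0.0537 and 0.135). SERPING1 fell by 2.14 at passage 4 and fell by 1.35 in regenerated cells (adjusted p = 0.00223 and 0.0164). Nearest to ITPR3, which spanned 1.56, were NCF1 (0.17), DHRS4 (0.20) and IRF1 (0.21). IRF1, an interferon-induced transcription factor, fell by 1.34 at passage 4 and fell by 1.44 in regenerated cells (adjusted p = 0.0045 and 0.00241). NCF1, a subunit of the phagocyte NADPH oxidase, was dim, at 17.1 to 18.9 at passage 4, 19.4 to 23.1 in regenerated cells and 49.8 to 97.2 at passage 1. It passed the filter through the passage 1 arrays alone.

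**Figure D4:**
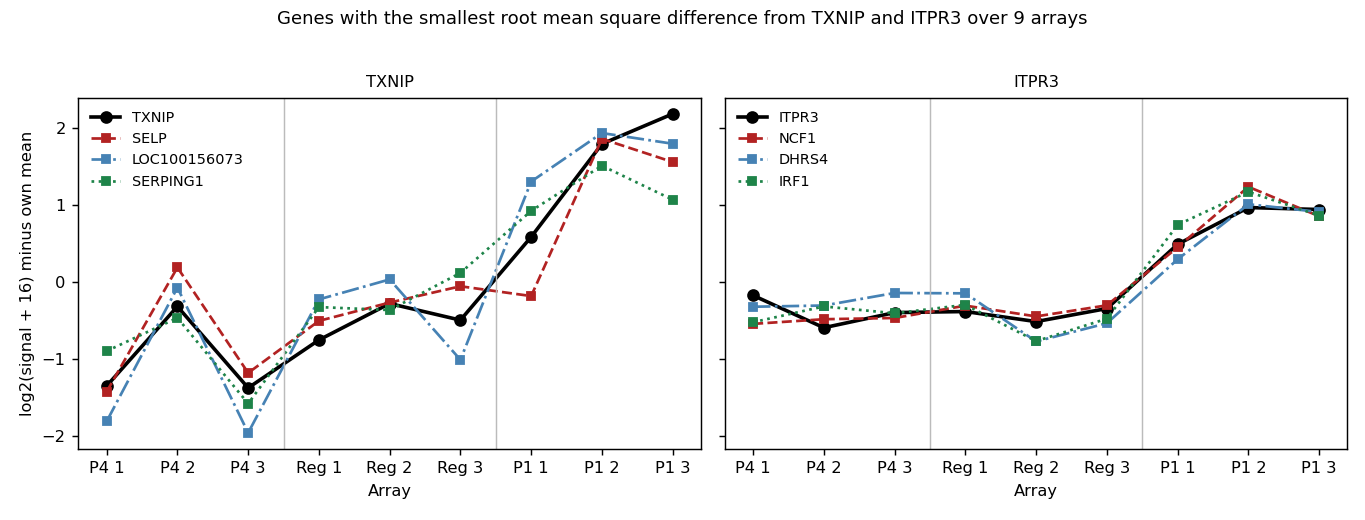
log2(signal + 16) minus each gene's own mean in the 9 arrays, with passage 4 arrays at the left, regenerated in the middle and passage 1 at the right, for TXNIP, ITPR3 and the 3 genes nearest to each. SELP follows TXNIP in passage 4 array 2, the highest of its group, and is low in passage 1 array 1 (2262 against 7575 or more in the other passage 1 arrays).

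Other genes of the pathways around these members were taken from a list of 92, of which 52 had a probe set and 48 were tested. At passage 4, where 4.79% of all tested probe sets passed and 2.08% passed downward, 1 rose and 7 fell, 40 did not pass, and the median difference was -0.16, where all tested probe sets had a median of 0.04. In regenerated cells, where 5.49% of all passed, 2 rose and 2 fell, 44 did not pass, and the median was -0.06 where all had -0.01. Between passage 4 and regenerated cells, where 12.5% of all passed, 0 rose, 6 fell and 42 did not pass. Of all 15299 tested probe sets 1246 rose and 666 fell there. The list had a median of -0.21 against 0.01 over all. The list was drawn up with earlier results of these data known, so these counts and medians describe it and are no separate support. The counts also changed with single arrays. At passage 4 the 8 became 2 without passage 1 array 2 or passage 4 array 3, 4 without passage 1 array 3 or passage 4 array 1, and 5 without passage 4 array 2. For regenerated cells the 4 became 2 without regenerated array 2. Between passage 4 and regenerated cells the 6 became 3 without passage 4 array 1 or regenerated array 3, and 2 without passage 4 array 3. With the spike-in class as a block they were 1, 5 and 0.

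Of the flow sensors and junction genes, 5 of 13 were tested, and the integrins moved in opposite directions. ITGB3, the beta 3 integrin chain, was at 77.6, 99.4 and 31.3 at passage 4, 100, 64.2 and 114 in regenerated cells, and 622, 370 and 294 at passage 1. ITGB3 fell by 2.41 at passage 4 (SE 0.38, adjusted p = 0.00551) and fell by 1.99 in regenerated cells (SE 0.38, adjusted p = 0.0128), with no overlap with passage 1 in either. The passage 4 call held in all 19 alternatives, within the spike-in class among them (-2.996, adjusted p = 0.0247), and the call in regenerated cells in 18, failing without regenerated array 2 (-1.79, adjusted p = 0.0643). ITGAV, the alpha V chain that pairs with it, rose in regenerated cells to 5485 ± 738, against 2515 ± 339 at passage 1 (SD, n = 3), by 1.12 (adjusted p = 0.00298), and held in all 19. At passage 4 ITGAV rose by 0.78 (adjusted p = 0.0214), but the call was lost without passage 1 array 2 or 3 or passage 4 array 2 or 3 (0.66 to 0.81, adjusted p from 0.0596 to 0.0906), within the spike-in class (0.62, adjusted p = 0.255), under median centring and without the variance trend, 7 of 19 alternatives in all. PKD1, a large membrane protein linked to flow sensing in cilia, rose in regenerated cells by 1.22 (adjusted p = 0.0422), a call lost in 11 of 19 alternatives, among them without passage 1 array 1 or 3, any 1 passage 4 array or regenerated array 2 or 3 (0.84 to 1.34, adjusted p from 0.0589 to 0.138). PECAM1 and CDH5, of the junctional flow sensor, were at 0.10 and -0.08 at passage 4 and at -0.19 and 0.06 in regenerated cells, and neither passed.

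At an unadjusted p under 0.05 stood 19.7% of all tested probe sets at passage 4 and 22.0% in regenerated cells, the shares to set beside the unadjusted counts that follow. Of the 5 tested genes of the MEK5-ERK5-MEF2 axis limma called 0 against passage 1, with 1 at an unadjusted p under 0.05 at passage 4 and 3 in regenerated cells. Of the 5 other KLF factors it also called 0, with 0 and 2 at that unadjusted p. MEF2A, which binds the KLF2 promoter, was at 0.33 at passage 4 and 0.11 in regenerated cells. KLF10 and KLF13 were at 0.45 and 0.58 in regenerated cells (adjusted p = 0.183 and 0.149) and at 0.25 and 0.04 at passage 4.

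Of 11 tested targets of KLF2 and KLF4, 2 fell at passage 4 and 1 in regenerated cells, and 0 rose. The list did not separate targets that these factors induce from targets they repress. The counts therefore give no direction of KLF2 or KLF4 activity. VCAM1 and EDN1 were at 0.05 and -0.13 at passage 4 and at -0.07 and 0.20 in regenerated cells, and neither passed. SELE, for E-selectin, fell by 3.60 at passage 4, a call lost within the spike-in class (-2.90, adjusted p = 0.0756), and fell by 3.11 in regenerated cells, a call held in all 19 alternatives. NOS3, the endothelial nitric oxide synthase, fell by 0.97 at passage 4 (adjusted p = 0.045). Its call was lost in 13 of 19 alternatives, among them without passage 1 array 2 or 3, any 1 passage 4 array or regenerated array 2 or 3 (-1.14 to -0.86, adjusted p from 0.0538 to 0.172) and within the spike-in class (-0.55, adjusted p = 0.48). THBD, for thrombomodulin, was at -0.64 at passage 4 and 0.14 in regenerated cells (adjusted p = 0.236 and 0.822). Among the 3 tested genes of sphingosine 1-phosphate signalling beside S1PR1, limma called 0 against passage 1, with 1 at an unadjusted p under 0.05 in each comparison. PLPP1, a lipid phosphatase, was at -0.70 at passage 4 (adjusted p = 0.0841).

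Of the 8 tested NFE2L2 pathway genes, GCLC alone passed against passage 1. At passage 4, 7 of the 8 were lower, where 46.1% of all tested probe sets were, with a median of -0.58 against 0.04 over all. Of the 8, 5 stood at an unadjusted p under 0.05 (limma), where 19.7% of all did. In regenerated cells 6 were lower, where 50.6% of all were, with a median of -0.23 against -0.01 over all. There 1 stood at that unadjusted p, where 22.0% of all did. GCLC, the catalytic subunit of the enzyme that starts glutathione synthesis, was at 356, 425 and 273 at passage 4, 531, 1272 and 806 in regenerated cells, and 1005, 859 and 973 at passage 1. GCLC fell by 1.41 at passage 4 (SE 0.29, adjusted p = 0.0207). A second GCLC probe set fell by 1.34 there (adjusted p = 0.0356), and another was at -0.83 (adjusted p = 0.185). The call was lost without passage 1 array 2 or 3 or passage 4 array 1 or 3 (-1.47 to -1.24, adjusted p from 0.0506 to 0.0906) and within the spike-in class (-1.50, adjusted p = 0.131). NQO1 and HMOX1, common NFE2L2 targets, were at -0.68 and -0.58 at passage 4 and did not pass (adjusted p = 0.211 and 0.297). TXN, for the thioredoxin that TXNIP binds, was at -0.16 at passage 4 and -0.07 in regenerated cells (adjusted p = 0.664 and 0.83).

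Among the TXNIP partners and relatives, 2 of 3 tested genes fell at passage 4. In regenerated cells limma called 0, with 1 at an unadjusted p under 0.05. ARRDC4, an arrestin-domain relative of TXNIP, was at 58.7, 124 and 68.7 at passage 4, 243, 289 and 186 in regenerated cells, and 205, 899 and 504 at passage 1. As for TXNIP, passage 4 array 2 was the highest of its group and passage 1 array 1 the lowest of its own. ARRDC4 fell by 2.30 at passage 4 (SE 0.44, adjusted p = 0.0155), and was at -0.91 in regenerated cells (adjusted p = 0.258). The passage 4 call was lost without passage 1 array 2 or passage 4 array 1 or 3 (-2.21 to -1.82, adjusted p from 0.0553 to 0.0628) and within the spike-in class (-1.21, adjusted p = 0.262). SLC2A1, the glucose transporter that TXNIP restrains, fell by 1.17 at passage 4 (adjusted p = 0.0198), a call lost within the spike-in class (-0.84, adjusted p = 0.265) and without passage 1 array 2 or 3 or any 1 passage 4 array (-1.23 to -1.08, adjusted p from 0.0506 to 0.0819).

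Of 5 tested glucocorticoid targets beside TSC22D3, DUSP1, a phosphatase that switches off MAP kinases, fell at passage 4. DUSP1 was at 2579 ± 296 at passage 4, 3787 ± 593 in regenerated cells and 4774 ± 493 at passage 1 (SD, n = 3 each). At passage 4 DUSP1 fell by 0.89 (adjusted p = 0.0127). That call was lost without passage 1 array 2 or passage 4 array 3 (-0.85 to -0.81, adjusted p from 0.0572 to 0.0662) and within the spike-in class (-0.99, adjusted p = 0.074). FKBP5, a standard glucocorticoid-induced gene, was at 0.25 at passage 4 and 0.04 in regenerated cells and did not pass. Of 8 calcium release genes 3 were tested beside ITPR3, and limma called 0 against passage 1, with 1 at an unadjusted p under 0.05 at passage 4 and 0 in regenerated cells. Among these, ORAI1, the store-operated calcium entry channel, was at -0.79 at passage 4 and -0.33 in regenerated cells (adjusted p = 0.167 and 0.567), and ITPR1 was dim, with means of 3.62 or less in every group.

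**Figure D5:**
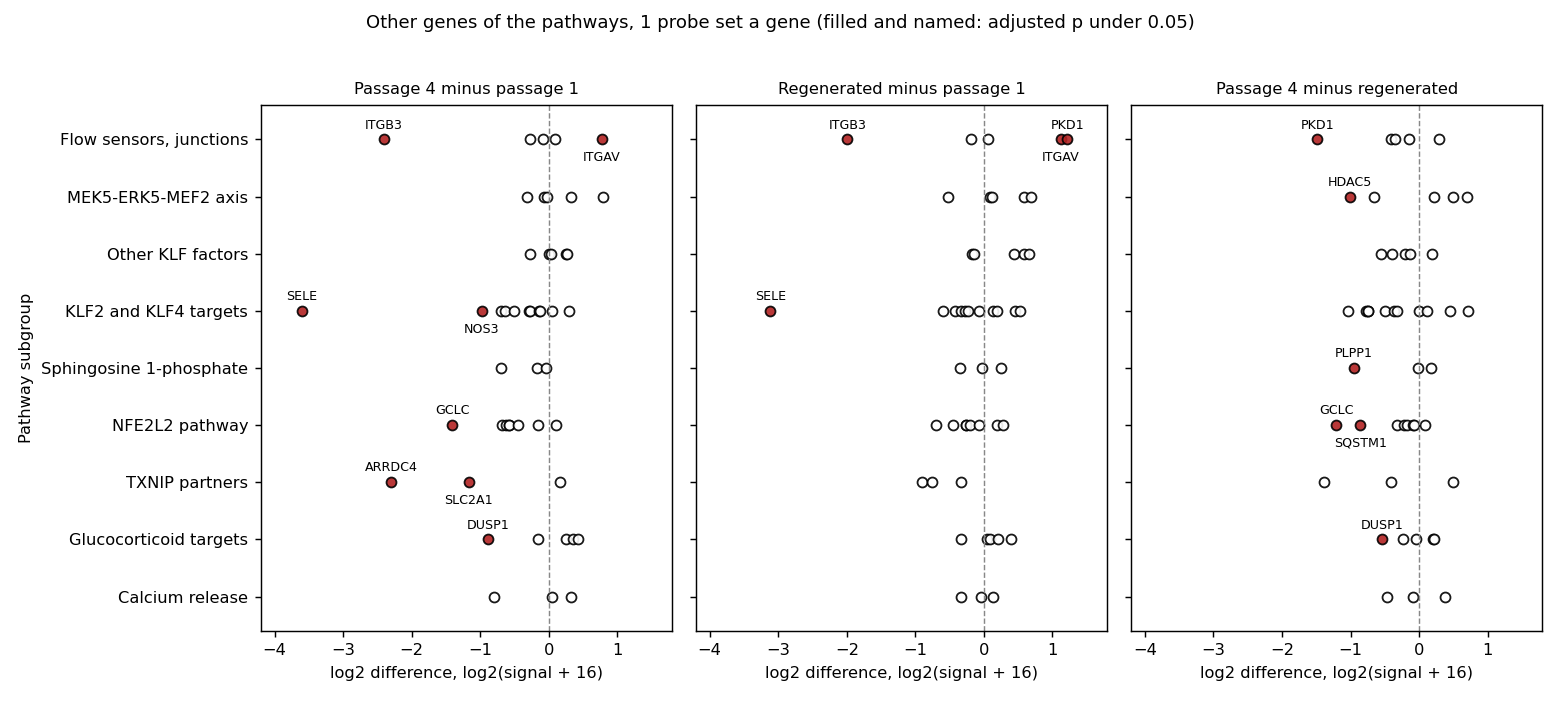
Difference on the log2(signal + 16) scale of the 48 tested pathway genes by subgroup in the 3 comparisons; filled, named points have an adjusted p under 0.05. ITGB3 lies at -2.41 and -1.99 and SELE at -3.60 and -3.11 against passage 1, while ARRDC4, GCLC, DUSP1, SLC2A1 and NOS3 are filled at passage 4 and not in regenerated cells.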

How the data were processed

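Per the submitters' processing notes the deposited values are MAS5 signals, probe set intensities on a linear scale; its version and settings are not given here. In the deposited intensities each array had a 2% trimmed mean of 500.1, and no normalization was added. From 24123 probe sets, 124 controls were left out. Symbols came from the platform annotation (10099 probe sets with 1 symbol, 198 with several, 13826 with none). Groups came from the sample titles. limma 3.58.1 under R 4.3.3 (lmFit, eBayes with intensity trend, 6 residual and 5.65 prior degrees of freedom) was fitted to log2(signal + 16) of all 9 arrays. Tests were two-sided. Pathway and marker lists used 1 probe set a gene, that with the highest mean. Every member probe set is named, with pathway genes past the threshold, up to 3 others a subgroup, and the 3 genes of nearest profile for members past it. Arrays were divided into 2 spike-in classes at the largest gap (2.16, the next being 0.32) in the mean 5' minus 3' signal of dap and thr. The members and lists were chosen with earlier results of these data known. No sequence is printed, since none was at hand. The alternatives tried were the pseudocount, the filter, the scaling, the variance prior, the arrays fitted, blocks and leaving out each array.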

Additional observations from a re-analysis of the deposited data

Results flagged for a closer look

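Between passage 4 and regenerated cells 12.5% of all tested probe sets passed, and 6 of the 48 tested pathway genes did. All 6 were lower at passage 4, while of all 15299 tested probe sets 1246 passed upward and 666 downward. For these 6 the change from passage 1 differed between the 2 groups by the test of passage 4 minus regenerated, in which passage 1 cancels. These were PKD1 at -1.49 (adjusted p = 0.0103, limma), HDAC5 at -1.01 (adjusted p = 0.0343), PLPP1 at -0.95 (adjusted p = 0.0137), GCLC at -1.20 (adjusted p = 0.0193), SQSTM1 at -0.86 (adjusted p = 0.00638) and DUSP1 at -0.55 (adjusted p = 0.04995). PKD1 was at 105, 110 and 121 at passage 4 and at 298, 362 and 370 in regenerated cells. All passage 4 arrays were of 1 spike-in class and all regenerated arrays of the other, so no comparison within a class exists. A fit with the class as a block rests on passage 1 array 1 against passage 1 arrays 2 and 3, with a median SE of 0.444 against 0.266, and in it none of the 6 passed (adjusted p from 0.217 to 0.709). There the difference of GCLC was -1.34 and that of DUSP1 -0.70, both larger in size than without the block. Those of SQSTM1, PLPP1, PKD1 and HDAC5 were smaller, at -0.60, -0.43, -0.36 and -0.35. Single arrays also ended calls. That of DUSP1 was lost without passage 1 array 2, any 1 passage 4 array or regenerated array 2 or 3 (adjusted p from 0.0648 to 0.174), and that of HDAC5 without any 1 passage 4 array or regenerated array 1 or 3 (0.0798 to 0.105). The call of GCLC was lost without passage 4 array 1 or 3 or regenerated array 2 or 3 (0.0545 to 0.0794), and that of PLPP1 without passage 4 array 3 (0.0579). Neither of the other tested GCLC probe sets passed (0.30 and -0.47). No tested member probe set passed in this comparison.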

How the results depend on the processing

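The 19 alternatives were run for every count and tested member, except that TSC22D3 had 18, as it did not pass the filter at the 60th percentile, and the 3 dim member probe sets had a value only without a filter. Those for the pathway counts were added after seeing the data. Fitting the spike-in class as a block left 150 probe sets, 0 members and 1 pathway gene past the threshold at passage 4 against passage 1, and 35 probe sets and 0 pathway genes between passage 4 and regenerated cells; the median SE there was 0.348 and 0.444, against 0.266. For regenerated cells against passage 1, fitting only these groups called 479 probe sets and a replicate block 554, of 840. The labels do not say that array numbers pair the samples, and the values gave no clear sign of it. Same-numbered deviations correlated at -0.138 to 0.186, and 2 of 9 arrays matched their own number best. With 3 arrays a group this check cannot exclude pairing. The replicate block called 549 and 1626 probe sets in the other comparisons and kept the member counts at 2, 2 and 0. Leaving out 1 array gave 244 to 1403, 291 to 1238 and 895 to 2406 probe sets, in the order passage 4 over passage 1, regenerated over passage 1, passage 4 over regenerated. Members were then 1 to 2, 1 to 2 and 0 to 0, and pathway genes 2 to 12, 2 to 5 and 2 to 8. Signs turned only in differences that had not passed. KLF4 at passage 4 against passage 1 was at -0.012 with quantile normalization, at -0.15 with median centring and at -0.14 to 0.22 without 1 array. TSC22D3 in regenerated cells against passage 1 was at -0.11 to 0.34 without 1 array. Between passage 4 and regenerated cells, the class block, which rests on passage 1 array 1 against the other passage 1 arrays, put TXNIP at 0.90 and S1PR1 at 0.16 (first probe set) and 0.17 (last), quantile normalization and median centring put ITPR3 at -0.094 and -0.10, and leaving out 1 array gave -0.081 to 0.13 for ITPR3 and -0.15 to 0.088 for the first S1PR1 probe set. The cause was not tested. Dim probe sets, KLF2 among them, had too little signal over background for a difference to be measured.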
